A study of Mus musculus with 12 samples.

Results

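The 28 genes described here make cholesterol or regulate, take up and export it. They were chosen by name from the 38924 genes of the deposited tables, 27 by symbol and 1, Msmo1, by its Ensembl ID, because the tables carry its older symbol Sc4mol. In pathway order they are 8 genes of the mevalonate steps, 10 of the sterol steps, 5 regulators of the transcription factor SREBP, and 5 genes of sterol uptake and efflux. The first 18 are called the synthesis genes below. All 28 passed the filter on low counts, and no mouse had fewer than 252 counts for any of them.

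Cells build cholesterol from acetyl-CoA through mevalonate, squalene and lanosterol. The enzymes are switched on together by SREBP-2, which SCAP carries out of the endoplasmic reticulum when sterols are scarce and which INSIG proteins hold back when sterols are plentiful. In the cord, where plasma lipoproteins do not cross the barrier between blood and tissue, oligodendrocytes use locally made cholesterol for myelin, and the nuclear receptors LXR switch on exporters when sterol accumulates.

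The samples were whole spinal cords of 12 mice aged 8 weeks on a B6J;FVB background. Of these, 6 carried the ETAQ deletion on one copy of Gars (ETAQ+/-, 3 females and 3 males) and 6 were wild type (WT, 3 females and 3 males), and each mouse is named by its number in the titles. Gars encodes glycyl-tRNA synthetase, and dominant changes in the human gene cause an inherited axonal neuropathy. The comparison asks which transcripts of the cord differ in the heterozygotes. Each library is bulk RNA from all cells of the cord, so fewer cells of a type and less RNA per cell cannot be told apart.

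Library totals were 23595929 to 41452662 expected counts. Gars stood at 136 to 151 normalised CPM in ETAQ+/- and 119.7 to 133 in WT, but gene counts do not separate the alleles and so do not check the genotype labels. Libraries also stood apart by number, with 1356 genes (7.89% of the 17189 tested) differing between mice 1 to 6 and mice 7 to 12. The summed level of 6 red blood cell markers was 7071 to 13178 TPM in mice 1 to 6 and 558 to 1129 TPM in mice 7 to 12. Summed Schwann cell markers were at 361 to 860 and 104 to 127 TPM in these sets. Mice 1 to 6 held 3 ETAQ+/- mice (1 female, 2 males) and 3 WT males, and mice 7 to 12 held the rest, so genotype was balanced between the sets while sex largely coincided with them.

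The letters before the start of 3 genes are shown. Mvk and Nsdhl are the 2 called members. Hmgcs1 alone, among the 23 members with a promoter window, carries the exact sterol element searched. Each is the run of 250 bases before the RefSeq start on GRCm38.p6, plus strand, at chr5:114444019-114444268 for Mvk, chrX:72918271-72918520 for Nsdhl and chr13:119690101-119690350 for Hmgcs1. Capitals mark CCAAT on either strand in Mvk and Nsdhl, and TCACCCCAC in Hmgcs1.
Mvk: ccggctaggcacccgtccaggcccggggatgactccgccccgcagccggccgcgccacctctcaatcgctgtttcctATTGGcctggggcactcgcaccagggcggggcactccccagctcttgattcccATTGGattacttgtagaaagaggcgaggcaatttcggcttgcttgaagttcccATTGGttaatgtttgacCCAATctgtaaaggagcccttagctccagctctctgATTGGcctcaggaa
Nsdhl: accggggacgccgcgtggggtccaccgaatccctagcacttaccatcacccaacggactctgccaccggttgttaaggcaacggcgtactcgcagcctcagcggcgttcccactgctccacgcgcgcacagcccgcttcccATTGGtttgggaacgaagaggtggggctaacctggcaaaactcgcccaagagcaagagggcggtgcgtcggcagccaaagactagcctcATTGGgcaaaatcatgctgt
Hmgcs1: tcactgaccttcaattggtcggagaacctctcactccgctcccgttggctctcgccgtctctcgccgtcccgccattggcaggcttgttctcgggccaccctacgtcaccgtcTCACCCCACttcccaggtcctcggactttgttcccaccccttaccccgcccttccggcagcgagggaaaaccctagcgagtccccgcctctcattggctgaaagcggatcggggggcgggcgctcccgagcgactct

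RefSeq gave such windows for 23 of the 28 members, 15 of them synthesis genes. CCAAT, the box bound by the factor NF-Y that works beside SREBP at many sterol genes, was present on either strand in 14 of the 15 synthesis genes (all but Acat2), in 5 of the 8 other members and in 37.5% of all 27025 genes with a window. GGGCGG, the box bound by SP1, was present in 14 of the 15, 7 of the 8 and 35.4% of genes. TCACCCCAC, the classic sterol regulatory element, was present in Hmgcs1 alone among the 23 members with a window and in 0.555% of genes. Only these exact letters were searched, so any other form of the element was not looked for. All 3 motifs were searched on both strands, genes with several windows were counted if any held a match, and no match of one motif overlapped another in the members. All members were among the 17189 genes tested, while the 27025 genes with a window include others, so these shares compare unlike sets. A match describes letters only. The CCAAT box was present in the called Mvk and Nsdhl as in Hmgcs1, which was not called.

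On the length-adjusted TPM scale the members spanned a wide range of levels. Hmgcs1, which joins acetyl-CoA to acetoacetyl-CoA, was the most abundant at 444 ± 38.8 TPM in ETAQ+/- and 435 ± 36.7 TPM in WT (SD, n = 6 each). The methyl sterol oxidase gene Msmo1 was at 170 ± 12.2 TPM in ETAQ+/- and 175 ± 9.11 TPM in WT, and Fdps, which makes farnesyl diphosphate, at 131 ± 12.6 and 130 ± 7.61 TPM. Insig1 was the most abundant regulator at 109 ± 10.3 TPM in ETAQ+/- and 116 ± 9.86 TPM in WT. The exporter Abca1, at 9.77 ± 0.957 TPM in ETAQ+/- and 8.21 ± 1.12 TPM in WT, and the ubiquitin ligase gene Mylip, at 6.46 ± 0.535 and 5.86 ± 0.725 TPM, were the lowest.

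In ETAQ+/- cords, 2 of the 28 members fell and none rose at an adjusted p under 0.05 in edgeR's quasi-likelihood test. Those 2 were Mvk and Nsdhl, 1 mevalonate and 1 sterol enzyme. Over all 17189 genes tested, 1.34% were called lower and 0.582% higher. At an unadjusted p under 0.05, 7 members were lower, against 6.36% of all genes, and 1 was higher, against 4.53% of all genes. The log2 fold change, ETAQ+/- over WT, was below 0 in 17 of the 18 synthesis genes, with a median of -0.08, against 48.1% of all genes, with a median of 0.00. No test of the list was made, since the genes share their mice. DESeq2 also called Mvk and Nsdhl and added Acat2 (adjusted p = 0.0439). Without mouse 1, 15 of the 18 stayed below 0 with a median of -0.06. Within mice 1 to 6, 10 of the 18 were below 0 with a median of -0.03 (49.6% of all genes were below 0). Within mice 7 to 12, 17 were below 0, with a median of -0.13 (49.5% of all genes).

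**Figure D1:**
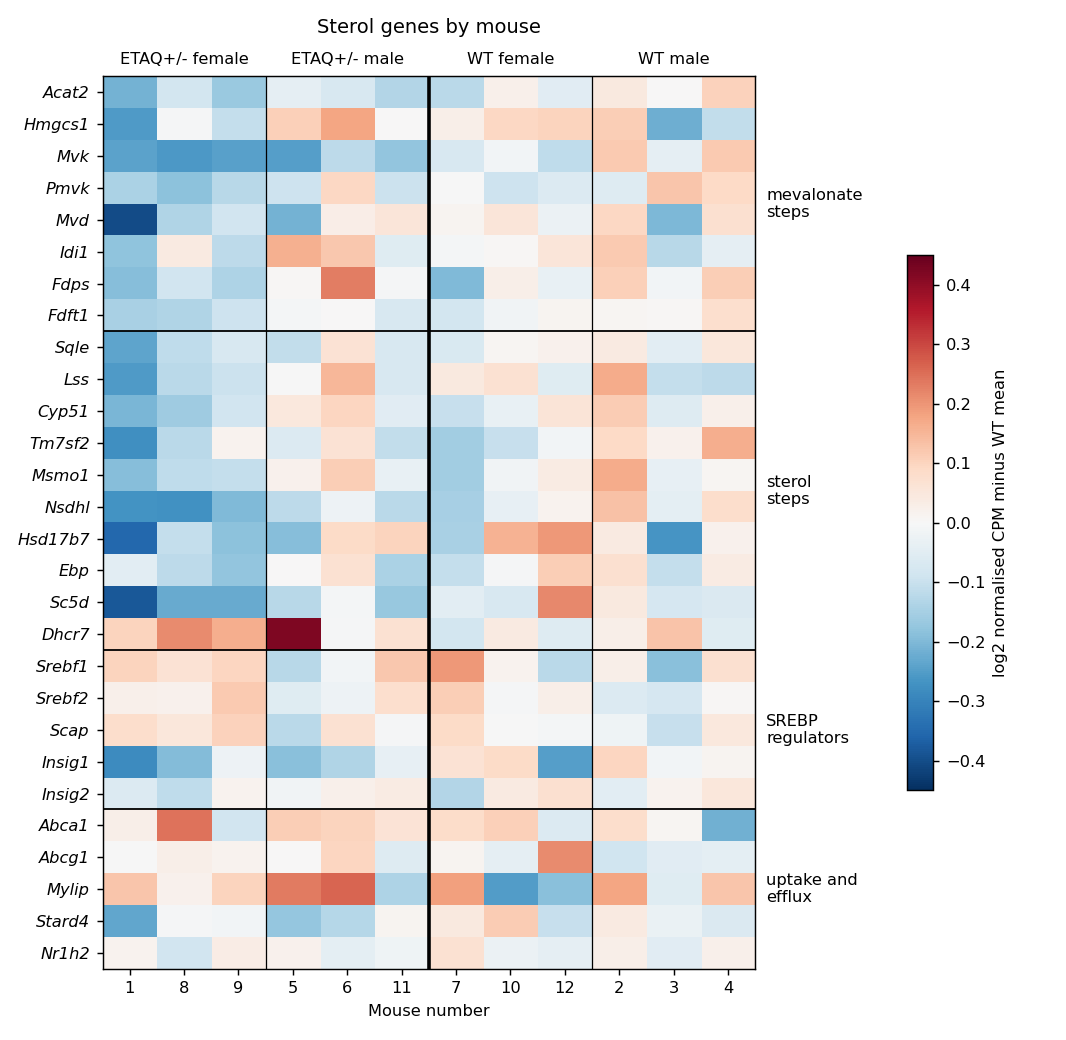
Each cell is the log2 normalised CPM of a member in 1 mouse minus that gene's WT mean, with ETAQ+/- mice on the left and WT mice on the right, and members in pathway order. Mouse 1 (ETAQ+/- female) is the lowest of the 12 mice in 12 of the 18 synthesis genes, while mouse 6 (ETAQ+/- male) is the highest ETAQ+/- mouse in 13 of them.

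The 8 genes of the mevalonate steps all had negative log2 fold changes, with a median of -0.08, and 1 of them, Mvk, was called. Mvk (ENSMUSG00000041939, chr5:114444269-114460591, plus strand, GRCm38) encodes mevalonate kinase, the first kinase of the route. It was at 20.4, 20.2 and 20.4 normalised CPM in ETAQ+/- females 1, 8 and 9 and at 20.4, 22.4 and 21.4 in ETAQ+/- males 5, 6 and 11. In WT females 7, 10 and 12 it was at 23.1, 24.1 and 22.4, and in WT males 2, 3 and 4 at 26.4, 23.6 and 26.4. The groups did not overlap, though narrowly, since ETAQ+/- mouse 6 at 22.35 lay just under WT mouse 12 at 22.39.

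Mvk thus averaged 20.9 ± 0.844 CPM in ETAQ+/- and 24.3 ± 1.70 CPM in WT (SD, n = 6 each), and it fell by 0.22 ± 0.04 (SE) on the log2 scale with an edgeR adjusted p of 0.0123 and a 95% interval of -0.31 to -0.13. It was the sole member whose groups did not overlap, as held for 2.01% of all genes. The direction was the same in females (-0.19) and males (-0.25). It was also the same within mice 1 to 6 (-0.25, edgeR adjusted p = 0.152) and within mice 7 to 12 (-0.19, edgeR adjusted p = 0.334). Neither within-set effect was called. The call held without each mouse in turn, with adjusted p from 0.00864 to 0.0424. On log2(TPM + 1) the change was -0.20 and the call was lost (limma adjusted p = 0.085).

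Acat2, for the cytosolic thiolase that makes acetoacetyl-CoA, had the next smallest p of this group. It was at 71.9, 78.7 and 74.2 CPM in ETAQ+/- females 1, 8 and 9 and 81.1, 79.3 and 76.0 in ETAQ+/- males 5, 6 and 11, against 76.6, 84.7 and 80.5 in WT females 7, 10 and 12 and 86.1, 83.5 and 89.8 in WT males 2, 3 and 4. The groups overlapped at their edges, with 4 WT mice above every ETAQ+/- mouse. The log2 fold change was -0.12 ± 0.03 (SE), with an edgeR adjusted p of 0.109 and an interval of -0.19 to -0.05. In the reference annotation 33.9% of the 75-base stretches of Acat2 also occur in other genes, so its reads may be divided among them.

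The other 6 mevalonate genes were not called. Fdft1, squalene synthase, had a log2 fold change of -0.08 (unadjusted p = 0.016, adjusted p = 0.276), with 21.8% of its sequences shared with other genes. Pmvk, phosphomevalonate kinase, was at -0.09 (adjusted p = 0.482) and Mvd, the decarboxylase after it, at -0.13 (adjusted p = 0.605). Fdps was at -0.03, the isomerase gene Idi1 at -0.00 and Hmgcs1 at -0.01, with adjusted p from 0.894 to 0.991. Of their sequences, 23.5% in Fdps, 23.6% in Idi1 and 9.79% in Hmgcs1 are shared with other genes.

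Hmgcs1 is described further because its values split by sex, a choice made after they were seen. It was at 659, 783 and 730 CPM in ETAQ+/- females 1, 8 and 9 and at 802, 838 and 844 in WT females 7, 10 and 12. In males it was at 848, 889 and 788 in ETAQ+/- mice 5, 6 and 11 and at 849, 675 and 728 in WT mice 2, 3 and 4. All 3 ETAQ+/- females were thus below all 3 WT females, while the males overlapped with higher values in ETAQ+/-.

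**Figure D2:**
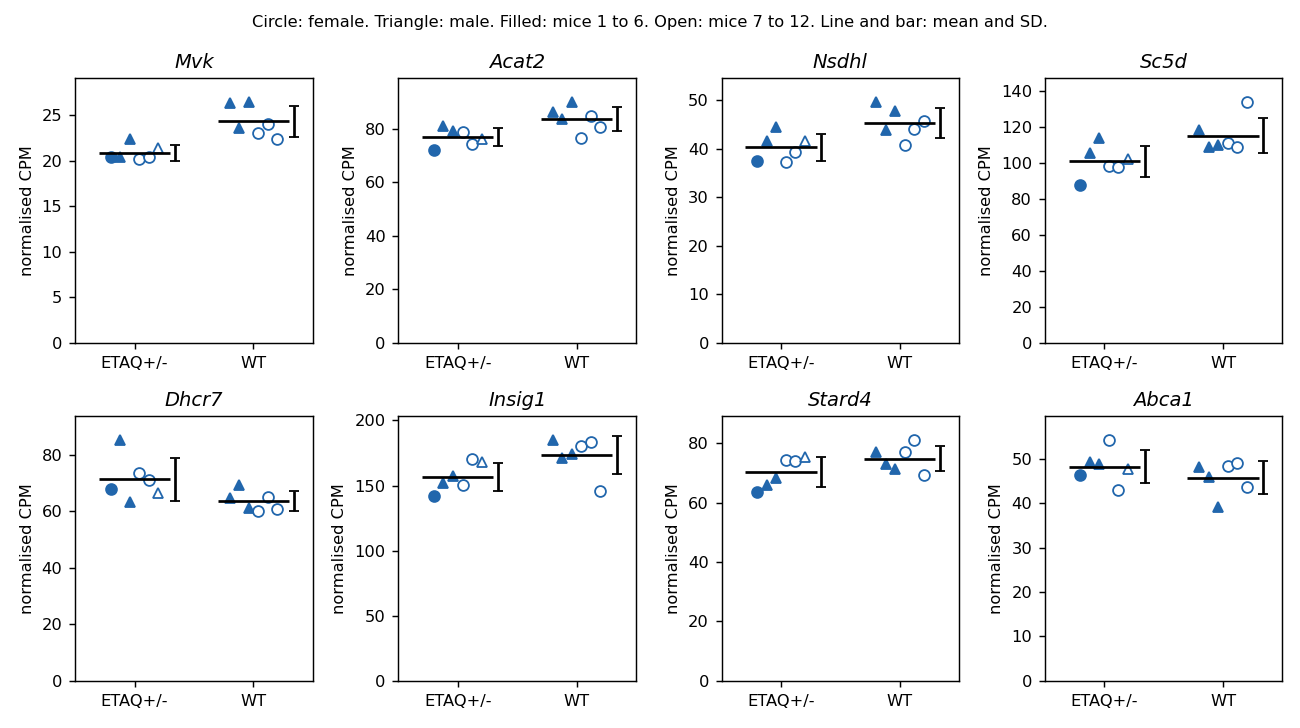
Normalised CPM of 8 members in each mouse, with ETAQ+/- left of WT in every panel, the group mean as a line and the SD as a bar. The ETAQ+/- points of Mvk lie under the WT points, and those of the other genes overlap with WT.

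The 10 genes of the sterol steps, which turn squalene into cholesterol, had 9 negative log2 fold changes with a median of -0.08, and 1 call. Nsdhl (ENSMUSG00000031349, chrX:72918557-72958514, plus strand, GRCm38) encodes the dehydrogenase that takes part in removing methyl groups from the sterol ring. It was at 37.4, 37.4 and 39.4 CPM in ETAQ+/- females 1, 8 and 9 and 41.7, 44.5 and 41.5 in ETAQ+/- males 5, 6 and 11. In WT females 7, 10 and 12 it was at 40.8, 44.1 and 45.8, and in WT males 2, 3 and 4 at 49.6, 43.9 and 47.9. Within each sex, the ETAQ+/- mice were lower except that male 6 lay above WT male 3.

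Nsdhl averaged 40.3 ± 2.78 CPM in ETAQ+/- and 45.3 ± 3.13 CPM in WT (SD, n = 6 each), and it fell by 0.17 ± 0.04 (SE) on the log2 scale with an edgeR adjusted p of 0.0442 and an interval of -0.26 to -0.08. This call lay close to the threshold. It was lost without mouse 1, 2, 4, 5, 8, 9, 10, 11 or 12, with adjusted p from 0.0694 to 0.122, while the log2 fold change stayed between -0.19 and -0.15. It was also lost without sex in the model (adjusted p = 0.193), within mice 1 to 6 (-0.14, adjusted p = 0.512), within mice 7 to 12 (-0.20, adjusted p = 0.253) and on log2(TPM + 1) (-0.13, adjusted p = 0.352). Nsdhl lies on the X chromosome, and its effect was -0.19 in females and -0.15 in males.

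Sc5d, the sterol desaturase of a late step, followed. It was at 87.9, 98.0 and 97.9 CPM in ETAQ+/- females 1, 8 and 9 and 105, 114 and 102 in ETAQ+/- males 5, 6 and 11, against 111, 109 and 133 in WT females 7, 10 and 12 and 118, 109 and 110 in WT males 2, 3 and 4. Among the ETAQ+/- mice only male 6 reached into the WT range. The log2 fold change was -0.19 ± 0.06 (SE), and the test did not pass (edgeR adjusted p = 0.211, interval -0.33 to -0.06).

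Dhcr7, the reductase that makes cholesterol from its last precursor, was the exception in sign and is described after its values were seen. It was at 68.1, 73.7 and 71.3 CPM in ETAQ+/- females 1, 8 and 9 and 85.1, 63.3 and 66.6 in ETAQ+/- males 5, 6 and 11, against 60.0, 65.2 and 61.0 in WT females 7, 10 and 12 and 64.7, 69.4 and 61.2 in WT males 2, 3 and 4. ETAQ+/- females were above all WT females, and male 5 was the highest mouse. The log2 fold change was 0.17 ± 0.06 (SE), with an edgeR adjusted p of 0.319 and an interval of 0.03 to 0.30. Leaving out each mouse in turn kept it between 0.11 and 0.21.

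The other 7 sterol genes were lower on average without passing the test. Sqle, the epoxidase that starts the ring steps, had a log2 fold change of -0.09 (unadjusted p = 0.0365, adjusted p = 0.404). The lanosterol synthase gene Lss was at -0.07, the lanosterol demethylase gene Cyp51 at -0.06, the sterol reductase gene Tm7sf2 at -0.08 and Msmo1 at -0.05. Hsd17b7, a ketosteroid reductase, was at -0.11 and the isomerase gene Ebp at -0.07. Their adjusted p ran from 0.699 to 0.794, apart from that of Sqle.

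**Figure D3:**
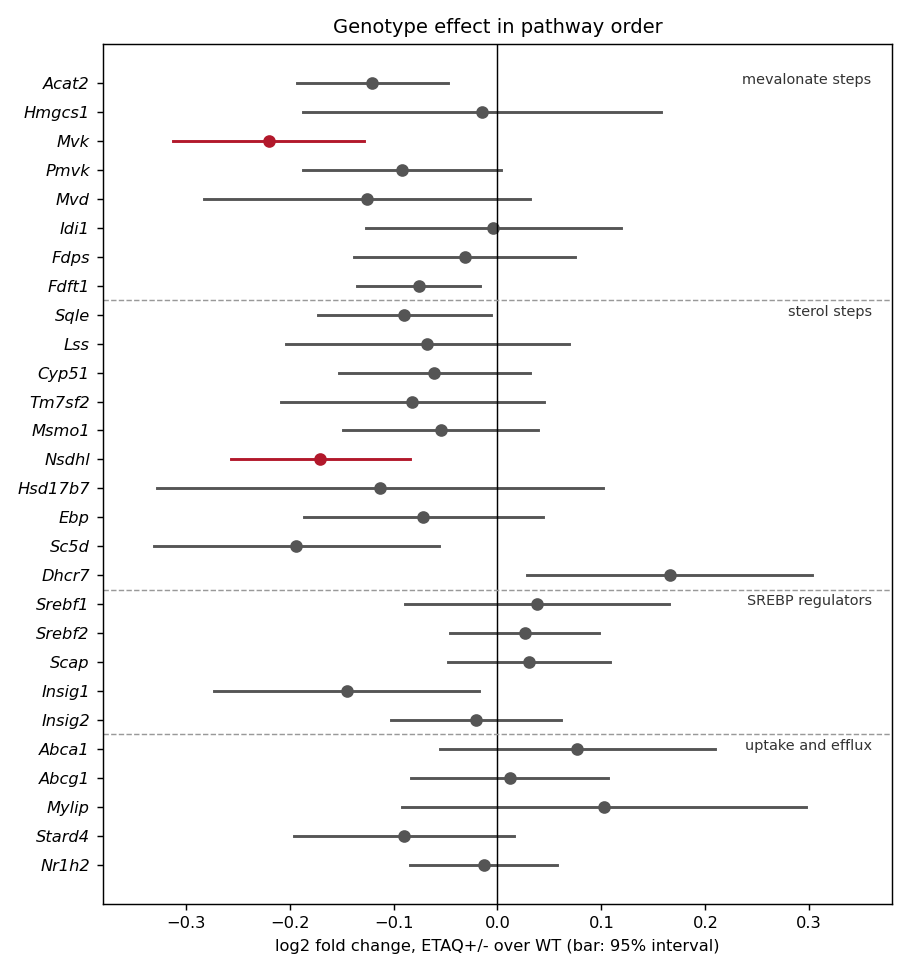
Log2 fold change of each member, ETAQ+/- over WT, with its 95% interval, in pathway order, with the 2 members that passed the test in red. Synthesis genes lie left of 0 except Dhcr7, and the regulators and transport genes lie on both sides.

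Among the 5 SREBP regulators none was called, with 2 negative and 3 positive log2 fold changes. Insig1, which retains SCAP and is itself an SREBP target, was at 142, 151 and 170 CPM in ETAQ+/- females 1, 8 and 9 and 152, 157 and 168 in ETAQ+/- males 5, 6 and 11, against 181, 183 and 145 in WT females 7, 10 and 12 and 185, 171 and 174 in WT males 2, 3 and 4. All ETAQ+/- mice were below 5 of the WT mice, and WT female 12 lay inside the ETAQ+/- range. The log2 fold change was -0.15 ± 0.06 (SE), with an edgeR adjusted p of 0.359 and an interval of -0.27 to -0.02, and without each mouse in turn it ran from -0.19 to -0.12.

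Scap, the escort of SREBP, was at 91.3, 89.5 and 92.7 CPM in ETAQ+/- females 1, 8 and 9 and 79.3, 90.5 and 86.0 in ETAQ+/- males 5, 6 and 11, against 91.6, 86.3 and 85.9 in WT females 7, 10 and 12 and 85.1, 80.4 and 89.1 in WT males 2, 3 and 4. The groups overlapped throughout, with a log2 fold change of 0.03 (adjusted p = 0.851, interval -0.05 to 0.11). Srebf2, which encodes SREBP-2, was at 0.03 with an interval of -0.05 to 0.10. Srebf1, whose product acts mainly on fatty acid genes, was at 0.04 and Insig2 at -0.02. Transcript levels do not show how much SREBP is cleaved.

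None of the 5 uptake and efflux genes was called. Stard4, a carrier of sterol between membranes, was at 63.4, 74.4 and 74.0 CPM in ETAQ+/- females 1, 8 and 9 and 66.0, 68.2 and 75.3 in ETAQ+/- males 5, 6 and 11, against 76.9, 80.9 and 69.4 in WT females 7, 10 and 12 and 76.9, 73.1 and 71.4 in WT males 2, 3 and 4. The 3 lowest values were those of ETAQ+/- mice 1, 5 and 6, and the others overlapped with WT. The log2 fold change was -0.09 ± 0.05 (SE), with an edgeR adjusted p of 0.564.

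Abca1, the exporter that loads cholesterol onto lipoproteins, was at 46.4, 54.1 and 42.9 CPM in ETAQ+/- females 1, 8 and 9 and 49.2, 48.9 and 47.6 in ETAQ+/- males 5, 6 and 11, against 48.3, 49.1 and 43.7 in WT females 7, 10 and 12 and 48.2, 45.9 and 39.2 in WT males 2, 3 and 4. The groups overlapped, at a log2 fold change of 0.08 (adjusted p = 0.744, interval -0.06 to 0.21). The exporter gene Abcg1 was at 0.01, Mylip, whose product sends lipoprotein receptors to degradation, at 0.10, and Nr1h2, which encodes LXR-beta, at -0.01, with adjusted p from 0.774 to 0.965.

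The level of the synthesis genes in each mouse was summarised as a mean. Averaged over the 18 genes, the log2 deviation from the WT mean was -0.22, -0.11 and -0.11 in ETAQ+/- females 1, 8 and 9 and -0.02, 0.06 and -0.06 in ETAQ+/- males 5, 6 and 11. In WT females 7, 10 and 12 it was -0.08, 0.00 and 0.02, and in WT males 2, 3 and 4 it was 0.08, -0.06 and 0.03. Mouse 1 was the lowest ETAQ+/- mouse in 13 of the 18 genes and mouse 7 the lowest WT mouse in 10. ETAQ+/- males 5 and 6 lay inside the WT range of -0.08 to 0.08, and so did male 11.

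The genotype effect was also read within each sex, in a fit without the mouse set. Among females only ETAQ+/- mouse 1 was in mice 1 to 6, and among males only ETAQ+/- mouse 11 was in mice 7 to 12. Within each sex, genotype and mouse set are thus partly mixed. Skeletal muscle markers had a median log2 fold change of 4.91 in females and -2.80 in males, and red blood cell markers 2.54 and -0.04. In females the log2 fold change was below 0 in 17 of the 18 synthesis genes, with a median of -0.12, against 48.2% of all genes. In males it was below 0 in 11 of the 18, with a median of -0.03, against 49.7% of all genes. Without WT male 2, the WT male with the highest mean above (0.08), it was below 0 in 8, with a median of 0.02. These within-sex values are not given for other omitted mice. Those include ETAQ+/- female 1 (mean -0.22), ETAQ+/- male 6 (0.06) and WT male 3 (-0.06), so their weight in either sex is not shown. Over the same split, the 10 oligodendrocyte markers had a median of 0.00 in females, with 6 above 0, and 0.16 in males, with 9 above 0. At an unadjusted p under 0.05, 10 synthesis genes were lower in females (4.96% of all genes) and 3 in males (4.78% of all genes), and none was called in either sex at an adjusted p under 0.05, at which edgeR called 0.541% of all genes lower in females and 0.442% in males. DESeq2 called Sc5d in females (adjusted p = 0.0118).

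The difference between the sexes was tested for each gene as an interaction. The effect was more negative in females than in males for 14 of the 18 synthesis genes, against 49.7% of all genes, and no member passed after adjustment, as no gene of the 17189 did (0%). Unadjusted, 2 members had a p under 0.05, against 4.96% of all genes. Hmgcs1 was at -0.19 ± 0.08 in females and 0.16 ± 0.08 in males (SE, edgeR adjusted p of the difference = 0.901). Sc5d was at -0.32 ± 0.08 in females and -0.07 ± 0.08 in males (SE, edgeR adjusted p of the difference = 0.901). Of the 28 members, 20 had the same sign in both sexes. The sexes also differed in mouse set, so sex and set cannot be told apart here.

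**Figure D4:**
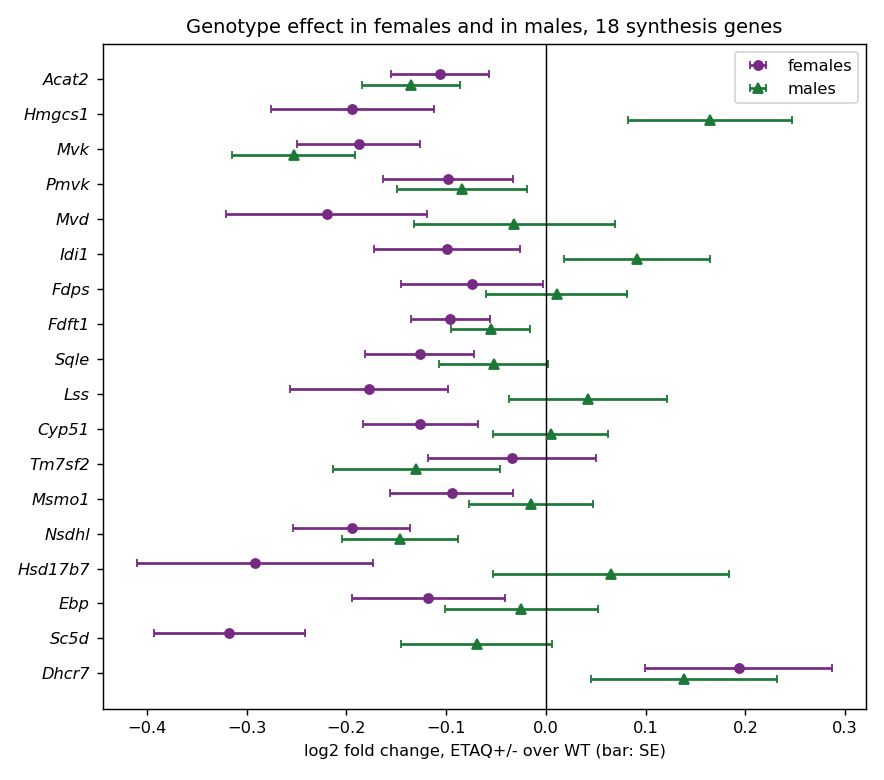
Log2 fold change, ETAQ+/- over WT, of the 18 synthesis genes in females (circles) and males (triangles), with SE bars from the fit of all 12 libraries. Female values lie left of 0 except for Dhcr7, and male values lie on both sides.

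Between males and females, with genotype but not mouse set in the model, all 18 synthesis genes were higher in males. Their median log2 fold change was 0.08, and 51.4% of all genes were higher in males. Sex largely coincided with mouse set, so this contrast does not separate the sexes from the sets. At an unadjusted p under 0.05, 9 members were higher in males (8.06% of all genes), all of them synthesis genes, and none passed after adjustment (0.0931% of all genes did, edgeR). Fdps had the largest of these values at 0.18 (adjusted p = 0.178), followed by Tm7sf2 at 0.14 and Nsdhl at 0.14. Between mice 1 to 6 and mice 7 to 12, with sex and genotype in the model, no member passed in edgeR. At an unadjusted p under 0.05, 3 members were lower in mice 1 to 6 (10.1% of all genes, and 21.9% in either direction). These were Mvd at -0.23 (adjusted p = 0.077), Hsd17b7 at -0.25 (adjusted p = 0.228) and Stard4 at -0.16 (adjusted p = 0.057), and DESeq2 called Stard4 (adjusted p = 0.0453).

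Related genes outside the 28 were read from lists by function. Over all genes tested, 1.34% were called lower, 0.582% higher and 48.1% had negative log2 fold changes. The groups did not overlap in 2.01% of all genes. Genes named from these lists were picked by their p, so a lack of overlap in them is not separate evidence. Of 9 redox partners and other sterol-regulated genes, 2 fell, all 9 log2 fold changes were negative and the median was -0.05. Cyb5r3, the reductase that feeds electrons through cytochrome b5 to sterol and fatty acid desaturases, was at 54.7 to 67.5 CPM in ETAQ+/- and 69.3 to 83.5 CPM in WT, without overlap. It fell by 0.35 ± 0.05 (SE) on the log2 scale with an edgeR adjusted p of 0.00147, more than any member.

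Of 17 genes of fatty acid synthesis, 1 fell, 15 log2 fold changes were negative and the median was -0.07. The called gene was Acly, which makes the cytosolic acetyl-CoA that both sterol and fatty acid synthesis use. It was at 404, 404, 424, 417, 404 and 425 CPM in ETAQ+/- mice 1, 5, 6, 8, 9 and 11 and at 496, 480, 474, 461, 502 and 511 CPM in WT mice 2, 3, 4, 7, 10 and 12. Every ETAQ+/- mouse was below every WT mouse, and Acly fell by 0.24 ± 0.03 (SE) on the log2 scale with an edgeR adjusted p of 0.000494.

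Of 21 genes of sterol transport, esterification and turnover, 1 rose, with 7 negative and 14 positive log2 fold changes. Vldlr, a lipoprotein receptor that also binds reelin, was at 107 to 125 CPM in ETAQ+/- and 97.3 to 105 CPM in WT, without overlap. It rose by 0.20 ± 0.04 (SE) on the log2 scale with an edgeR adjusted p of 0.0217, and the call was lost without mouse 3, 4, 8 or 12 (adjusted p from 0.0546 to 0.0619). None of 9 genes for SREBP proteases and sterol-sensing degradation was called, with adjusted p of at least 0.377. None of 13 genes of the isoprenoid branch was called, with Coq2 at 0.27 (adjusted p = 0.235), and none of 4 LXR partners, with Rxrb at 0.07 (adjusted p = 0.519).

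**Figure D5:**
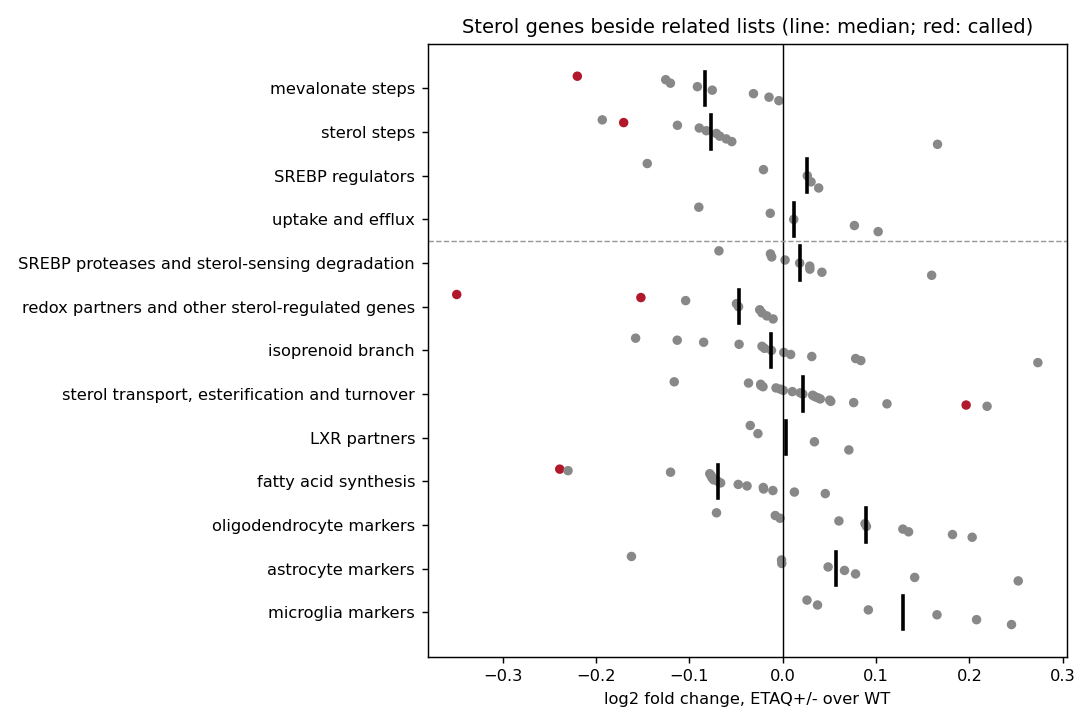
Log2 fold change, ETAQ+/- over WT, of every tested gene in the 4 member groups (above the dashed line) and in related lists and 3 marker lists, with list medians as black bars and called genes in red. The 28 members lie between -0.22 and 0.17, and Cyb5r3 at -0.35 lies farthest to the left.

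Cell type markers were read beside these results. None of 10 oligodendrocyte markers was called, 7 of them had positive values, and their summed level was 11360 to 13624 TPM in ETAQ+/- and 10935 to 12238 TPM in WT. The female minus male difference in their genotype effect was below 0 in 10 of 10, with a median of -0.14 and none called (lowest adjusted p = 0.901). Their median genotype effect was 0.17 within mice 1 to 6 and -0.02 within mice 7 to 12. Mal, a myelin proteolipid gene, had the smallest p (log2 fold change 0.13, adjusted p = 0.106). None of 8 astrocyte markers was called. Of these, 5 had positive and 3 negative values, from -0.16 to 0.25 with a median of 0.06, with Gja1 at 0.14 (adjusted p = 0.186). Their summed level was 3722 to 4127 TPM in ETAQ+/- and 3319 to 3643 TPM in WT, without overlap. Microglia markers (0 of 6 called) summed to 207 to 234 TPM in ETAQ+/- and 185 to 215 TPM in WT, with Cx3cr1 at 0.21. TPM ran slightly higher in ETAQ+/- over all genes, with a median log2 fold change of 0.038 on log2(TPM + 1), against 0.0043 in counts.

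Of 6 tested motor neuron markers (7 were listed, and Slc18a3 matched no row) 3 fell, against 1.34% of all genes. The log2 fold changes of the 6 ran from -1.84 to -0.02 with a median of -0.46, and in females 2 of the 6 were positive. The summed level of the 6, called ones included, was 78.8 to 96.8 TPM in ETAQ+/- and 139 to 156 TPM in WT. Chodl fell by 1.84, Prph by 0.84 and Chat by 0.64 on the log2 scale (edgeR adjusted p = 7.12e-10, 2.84e-07 and 2.62e-06). Markers of neighbouring tissue were not called for genotype, in 6 Schwann cell, 2 tested adipocyte, 7 skeletal muscle and 6 red blood cell genes. Egr2, Cidec, Myh4 and Hba-a2 had the smallest p of these lists, with adjusted p from 0.638 to 0.922. Adipocyte markers summed to 0.08 to 7.99 TPM in ETAQ+/- and 0.06 to 6.03 TPM in WT, with up to 5 of the 6 listed genes at 0 in a library. Skeletal muscle markers summed to 2.67 to 133 TPM in ETAQ+/- and 1.95 to 826 TPM in WT, and red blood cell markers to 744 to 13178 TPM in ETAQ+/- and 558 to 11080 TPM in WT. The part of any of these cell types in the values of the sterol genes was not tested.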

How the data were processed

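RNA of 12 whole cords was measured by polyA-selected sequencing with 75 bp paired reads, per the labels' protocols, which name 2 library kits without saying which library used which. Reads were handled with Bowtie2 2.2.0 and RSEM 1.2.12, per the submitters' processing notes. Build, annotation and strand setting are not given in the sources used here. Deposited tables hold expected counts, estimated by the authors with RSEM per the file headers, of which 15.4% were not whole. They also hold TPM values, scaled by the authors' software for length and library total. Deposited FPKM values were not used.

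Expected counts were rounded and analysed in R 4.3.3. The filterByExpr function of edgeR 4.0.16, on the 4 genotype-by-sex groups, kept 17189 genes. TMM scaling gave normalised CPM. For genotype, the robust quasi-likelihood test of edgeR was used, two-sided, with sex as a covariate. A fit of the 4 groups, without the mouse set, gave effects within sexes and their difference. Benjamini-Hochberg adjustment ran over all tested genes, and a gene is said to be called at an adjusted p under 0.05. SE is the absolute log2 fold change over the square root of F, and 95% intervals use the same fit. Scripts were tested on simulated data. Alternatives were other scalings, DESeq2 1.42.0, no count filter, no sex term, the mouse set as covariate, and leaving out each mouse. Limma 3.58.1 was used with voom and on log2 TPM with pseudocounts of 1 and 0.1. The TPM fits took genes at 1 TPM or more in at least 3 mice. Genotype effects within each mouse set came from 1 fit of all 12 mice, with sex and set in the model. The contrast of the mouse sets had sex and genotype in the model, and that of the sexes had genotype only.

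The members and lists were chosen with earlier results of these data known, as were the mouse sets. All 28 members are named. The 2 with the smallest p in each group of members and the called ones are given mouse by mouse, and other lists give up to 3 called genes or the 1 of smallest p, except that values of 2 listed genes are not reported here. Positions and shared sequences come from GENCODE M21 (GRCm38) and promoter windows from RefSeq (GRCm38.p6). A count of 0 would allow up to 3 counts, 0.0724 to 0.127 CPM by library, for counting error only, but no member was near it.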

Additional observations from a re-analysis of the deposited data

Results flagged for a closer look

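In 3 cases a single mouse stood far from the rest of its genotype in 1 member, by a gap to the next mouse of more than 0.625 of the group's range. Chance flags about 1 in 20 groups, and 56 groups (28 members in 2 genotypes) were examined. Pmvk in ETAQ+/- mouse 6 was at 36.9 normalised CPM, with the next ETAQ+/- mouse at 32.3 and the lowest at 30.3. Insig1 in WT mouse 12 was at 145 CPM, with the next WT mouse at 171 and the highest at 185. Without mouse 12 the log2 fold change of Insig1 was -0.19 (edgeR adjusted p = 0.077), against -0.15 with all mice. Abcg1 in WT mouse 12 was at 71.3 CPM, with the next WT mouse at 62.0 and the lowest at 57.8. The cause was not tested.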

How the results depend on the processing

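The count of members lower in ETAQ+/-, 2 in edgeR, was 1 with upper-quartile scaling and 1 without sex in the model, and 1 to 2 when each mouse was left out. It was 0 within mice 1 to 6, 0 within mice 7 to 12, and 0 on log2(TPM + 1) and on log2(TPM + 0.1). Both within-set effects came from 1 fit of all 12 libraries, in which each set holds 6 mice. The cause was not tested. Members lower at an unadjusted p under 0.05 numbered 7, and 3 on either TPM scale, and 5 to 8 without each mouse. Synthesis genes below 0 numbered 17, and 10 within mice 1 to 6, and 15 to 17 without each mouse. The number was smaller on both TPM scales, where Hmgcs1, Idi1, Fdps and Lss were above 0. It was also smaller with upper-quartile scaling, where Idi1 was above 0. Members differing between the mouse sets numbered 0, and 1 with DESeq2, and 0 to 2 without each mouse (Stard4, Mvd and Insig1). The count of members that differed between males and females stayed at 0 with the mouse set as covariate, and the count with a sex difference in the genotype effect stayed at 0 with DESeq2, with RLE scaling and without each mouse. Within females, members called numbered 0 in edgeR and 1 in DESeq2 (Sc5d).

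The sign turned in these cases. Within mice 1 to 6, Hmgcs1 was at 0.16, Idi1 at 0.10, Fdps at 0.019, Lss at 0.043, Cyp51 at 0.011, Hsd17b7 at 0.0041, Ebp at 0.021 and Srebf1 at -0.0059, and within mice 7 to 12 Abcg1 was at -0.067. On log2(TPM + 1) and log2(TPM + 0.1), Hmgcs1 was at 0.028 in both, Idi1 at 0.075 in both, and Fdps at 0.0086 and 0.0087. On the same scales Lss was at 0.11 and 0.12, Insig2 at 0.14 in both, and Nr1h2 at 0.027 and 0.028. The median over all genes was itself 0.038 and 0.041 there, against 0.0043 in the main fit. Hmgcs1, Fdps and Nr1h2 thus stayed below the median of all genes on the TPM scales, and Idi1, Lss and Insig2 lay above it. Idi1 was at 0.0049 with upper-quartile scaling, and Myh4 at 1.66 with DESeq2. Without each mouse, ranges that crossed 0 were -0.067 to 0.034 for Hmgcs1, -0.038 to 0.027 for Idi1, -0.044 to 8.8e-05 for Insig2, -0.015 to 0.055 for Abcg1, -0.024 to 0.0029 for Nr1h2 and -4.23 to 0.55 for Myh4. On log2(TPM + 1) the calls of Acly (adjusted p = 0.0695), Cyb5r3 (0.0953) and Vldlr (0.144) were lost too. Of 536 single-gene results under settings other than leaving out a mouse, 483 kept sign and side of the threshold.

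Over all genes, 230 were lower and 100 higher. The lower count was 90 and 118 within the sets and 81 and 79 on the TPM scales, and the higher count was 158 with DESeq2, 151 with the mouse set as covariate, and 48 and 43 within the sets. No paired analysis was possible because each mouse has its own number.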

Other observations

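The length that RSEM gives a gene, which depends on the transcripts its reads are assigned to, differed between genotypes for some members. Lss averaged 4161 bases (3936 to 4348) in ETAQ+/- and 4569 bases (4139 to 4836) in WT. Abca1 averaged 8669 bases in ETAQ+/- and 9518 in WT, and Insig2 1739 bases in ETAQ+/- and 1859 in WT. These 3 were picked after looking at the values and were not tested. TPM divides by this length. The log2 fold change of Lss was -0.07 in counts and 0.11 on log2(TPM + 1), and that of Insig2 was -0.02 and 0.14. The median over all genes was 0.0043 in counts and 0.038 on log2(TPM + 1).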
